A study of Homo sapiens with 4 samples.

Results

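The genes of microRNA processing and the Argonaute family were described in RNA-seq of 4 libraries labelled as HepG2, a human cell line from a liver tumor. The 10 genes, chosen by name for their place in the pathway, were DROSHA, DGCR8, XPO5, DICER1, TARBP2, PRKRA, AGO1, AGO2, AGO3 and AGO4, and all 10 were found among the 59050 genes of the count files by symbol. All 10 also passed the filter on low counts, which left 17479 genes. The libraries were made from poly(A)-selected RNA of cells of 1 line. There were 2 libraries of untreated cells (0 h) and 2 of cells given doxorubicin, a drug that damages DNA, at 1 µg/ml for 24 h to raise p53, and the series describes them as biological replicates. The series holds no untreated library at 24 h, so that the drug and the time cannot be told apart. Words such as after doxorubicin or with the drug only name the treated libraries.

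MicroRNAs are made in steps. In the nucleus the Microprocessor, in which DROSHA is the nuclease and DGCR8 the RNA-binding partner, cuts a hairpin out of a primary transcript, and exportin-5 (XPO5) carries that hairpin to the cytoplasm. DICER1 then cuts it to a short duplex with the help of the double-stranded RNA-binding proteins TRBP (TARBP2) and PACT (PRKRA). An Argonaute protein (AGO1 to AGO4) keeps a strand of the duplex and is led by it to mRNAs, and AGO2 is the member best known for slicing its target. After DNA damage p53 is known to act on the Microprocessor through the helicase p68 (DDX5). Here the mRNAs of this machinery were asked about, not the microRNAs themselves.

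The libraries held between 27572740 and 36272180 counts, and levels are given as CPM, the count of a gene per 1000000 counts of its library. Untreated replicate 2 stood apart from the other libraries. Its correlation across genes (Pearson, log2 CPM after TMM scaling) was 0.887 with untreated replicate 1, against 0.988 between the doxorubicin replicates and 0.979 between untreated replicate 1 and doxorubicin replicate 1. The log2 fold changes are therefore given with it and without it. Liver markers were nearly absent: ALB, the gene of serum albumin, had 0 and 1 counts in untreated replicates 1 and 2 and 2 and 3 counts in doxorubicin replicates 1 and 2. The summed CPM of 10 liver genes (ALB, AFP, APOA1, APOB, TTR, FGA, FGB, FGG, SERPINA1 and HNF4A) was 1.27 and 2.67 without the drug and 16.5 and 19.6 with it, in which FGG of fibrinogen made up most of the sum, and 4, 0, 1 and 4 of the 10 liver genes were at 0 counts in these libraries. The p53 target CDKN1A measured 380 and 866 CPM without the drug and 1003 and 880 CPM with it. The part of these differences between libraries in the results below was not tested. In bulk RNA, fewer cells of a type and less RNA per cell cannot be told apart.

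AGO4, AGO1 and AGO3 lie side by side on the plus strand of chromosome 1 (GRCh38), in the order AGO4 (35808016 to 35857890), AGO1 (35869808 to 35930532) and AGO3 (35930718 to 36072500). AGO4 ends 11917 bases before AGO1 begins, and only 185 bases separate AGO1 and AGO3. Their promoter windows, from 250 bases before to 50 bases after a transcription start (RefSeq, GRCh38.p14), are shown because the genes are neighbours. With all libraries AGO4 had the largest log2 fold change of the genes studied, and those of AGO1 and AGO3 were smaller. Whether these differed from each other was not tested, nor was any link between the windows and the levels. The RefSeq starts shown for AGO1 and AGO3 lie inside the longer GENCODE genes, as do their whole windows. Capitals mark the GC box (GGGCGG) and the CCAAT box (CCAAT), searched on both strands together with the TATA box (TATAAA), which was found in none of them.

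AGO4 promoter window, chr1:35807766-35808065, plus strand: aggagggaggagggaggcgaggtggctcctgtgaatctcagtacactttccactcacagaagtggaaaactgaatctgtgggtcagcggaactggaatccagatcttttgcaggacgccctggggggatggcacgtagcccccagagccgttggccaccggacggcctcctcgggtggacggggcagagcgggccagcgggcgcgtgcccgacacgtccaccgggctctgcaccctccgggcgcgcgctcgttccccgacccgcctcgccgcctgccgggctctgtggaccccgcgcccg

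AGO1 promoter window, chr1:35882959-35883258, plus strand: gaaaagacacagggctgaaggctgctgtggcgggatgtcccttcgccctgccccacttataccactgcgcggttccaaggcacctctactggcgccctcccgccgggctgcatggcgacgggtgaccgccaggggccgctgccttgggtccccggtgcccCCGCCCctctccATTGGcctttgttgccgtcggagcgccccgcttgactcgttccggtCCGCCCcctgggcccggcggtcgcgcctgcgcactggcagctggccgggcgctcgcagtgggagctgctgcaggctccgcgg

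AGO3 promoter window, chr1:35930855-35931154, plus strand: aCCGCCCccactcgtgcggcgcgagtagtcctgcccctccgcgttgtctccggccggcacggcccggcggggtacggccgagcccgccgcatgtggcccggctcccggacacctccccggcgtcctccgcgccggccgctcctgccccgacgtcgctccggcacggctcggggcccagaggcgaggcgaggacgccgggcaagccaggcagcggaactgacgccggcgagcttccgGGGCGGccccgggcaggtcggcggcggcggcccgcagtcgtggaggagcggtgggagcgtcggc

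The AGO4 window held neither a GC box nor a CCAAT box. The AGO1 window held 2 GC boxes and 1 CCAAT box and the AGO3 window held 2 GC boxes. Of the 17 windows searched for 9 of the genes (AGO2 was left out), 13 held a GC box and 8 a CCAAT box, and among all 34943 windows the shares were 44.9% and 34.6%. Some windows of DICER1 and of PRKRA share bases, so that the same sequence was searched more than once. By gene, 8 of the 9 held a GC box and 6 a CCAAT box in some window. No share by gene was computed over all genes, and a gene with several windows has more chances of a match. The GC content of the 17 windows ran from 34% to 80.3%, against a median of 58.7% over all windows. Its part in the matches was not tested. A p53 half-site was found in 1 of the 17 windows, at a start of DICER1 within the gene (chr14:95136752-95137051), and in 6.64% of all windows. A match is a string of letters and no sign that a factor binds there.

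DGCR8 mRNA is known to carry hairpins that the Microprocessor itself can cut. The hairpin genes MIR3618 and MIR1306 lie inside exons of DGCR8 on chromosome 22 and cover 88 and 85 of its 4526 exon bases, and both had 0 counts in all 4 libraries. They lie on the same strand as DGCR8, so that a read there fits both genes. How such reads were counted is not given in the sources used here, and the 0 counts are therefore no measure of the hairpins. The mature microRNAs are shown (RefSeq, GRCh38.p14) with the seed, bases 2 to 8, in capitals.

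hsa-miR-3618: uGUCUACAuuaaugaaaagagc

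hsa-miR-1306-5p: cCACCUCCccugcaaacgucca

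hsa-miR-1306-3p: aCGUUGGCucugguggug

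The 3 seeds differ from each other. Mature microRNAs have no poly(A) tail and are not captured by such libraries, so that their levels were not measured here.

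Among the genes of the Microprocessor, DROSHA separated the untreated replicates and DGCR8 did not. DROSHA (chromosome 5, 31400494 to 31532196, minus strand) measured 221 and 62.6 CPM in the untreated libraries (replicates 1 and 2) and 189 and 189 CPM in the doxorubicin libraries. Untreated replicate 2 was 3.52-fold below untreated replicate 1, and the doxorubicin libraries lay between them. Its log2 fold change, doxorubicin over untreated, was 0.26 ± 0.60 (SE, adjusted p-value 0.901) with all libraries and -0.36 ± 0.22 (SE, adjusted p-value 0.364) without untreated replicate 2. Here and below, adjusted p-values are those of edgeR (quasi-likelihood, Benjamini-Hochberg) unless DESeq2 is named. DGCR8 (chromosome 22, 20080221 to 20111877, plus strand) measured 27.5 and 26.2 CPM without the drug and 29.9 and 23.7 CPM with it. It was the gene of the 10 with the closest untreated replicates, and both lay inside the range of the doxorubicin pair. Its log2 fold change came to -0.15 ± 0.38 (SE) with and -0.17 ± 0.25 (SE) without untreated replicate 2. Per kilobase of exon, the level of DROSHA was 6.68 times that of DGCR8 in untreated replicate 1, 1.99 times in untreated replicate 2, and 5.28 and 6.63 times in the doxorubicin replicates.

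XPO5 (chromosome 6, 43522334 to 43576038, minus strand), which encodes the exporter of the hairpins, measured 126 and 63.9 CPM without the drug and 104 and 116 CPM with it. As with DROSHA, both treated libraries lay between the untreated ones. The log2 fold change came to 0.05 ± 0.42 (SE, adjusted p-value 0.973) with and -0.33 ± 0.23 (SE, adjusted p-value 0.431) without untreated replicate 2.

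Both treated libraries were above the untreated ones for the nuclease DICER1 and below them for its partner TARBP2. Over all genes, 30.3% had both treated libraries above and 11.5% had both below. For PRKRA they lay in between, and none of the 3 passed the test. DICER1 (chromosome 14, 95086228 to 95158010, minus strand) measured 40.1 and 25.4 CPM in the untreated libraries (replicates 1 and 2) and 42.1 and 59.1 CPM in the doxorubicin libraries. The groups did not overlap, but doxorubicin replicate 1 was close to untreated replicate 1. Its log2 fold change came to 0.46 ± 0.41 (SE, adjusted p-value 0.785) with and 0.19 ± 0.24 (SE, adjusted p-value 0.726) without untreated replicate 2. TARBP2 (chromosome 12, 53500921 to 53506431, plus strand) was the gene of the 10 whose doxorubicin libraries both lay below both untreated libraries, measuring 72.7 and 88.9 CPM without the drug and 59.9 and 56.2 CPM with it. Untreated replicate 1 was the closer of the untreated libraries to the treated pair, at 1.25 times its mean. The same order was found in 11.5% of all genes. Its log2 fold change came to -0.63 ± 0.33 (SE, adjusted p-value 0.773) with and -0.46 ± 0.23 (SE, adjusted p-value 0.248) without untreated replicate 2.

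PRKRA (chromosome 2, 178431292 to 178451512, minus strand) measured 23.1 and 34.5 CPM without the drug and 27.2 and 29.2 CPM with it, so that the treated pair lay between the untreated libraries. Its log2 fold change came to -0.19 ± 0.39 (SE) with and 0.15 ± 0.26 (SE) without untreated replicate 2. A long noncoding RNA gene of the opposite strand covers 36.9% of the exon bases of PRKRA, and since the use of strand in counting is not given in the sources used here, reads of the gene and of its antisense partner cannot be told apart. Such genes also cover 14.3% of the exon bases of TARBP2 and 11.6% of those of DGCR8. PRKRA-AS1, named in the counts as antisense to PRKRA, measured 4.91 and 3.60 CPM without the drug and 10.2 and 10.3 CPM with it. Its log2 fold change came to 1.11 ± 0.48 (SE, adjusted p-value 0.773) with and 0.93 ± 0.33 (SE, adjusted p-value 0.0591) without untreated replicate 2. Within each library, the level of TARBP2 per kilobase of exon was 13.7 and 26.4 times that of DICER1 in untreated replicates 1 and 2 and 10.8 and 7.19 times in the doxorubicin replicates. The treated ratios were thus below both untreated ones, which follows from the orders already given for TARBP2 and DICER1. For PRKRA the ratios to DICER1 were 3.17, 7.46, 3.55 and 2.72 in the same order, and the groups overlapped.

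**Figure D1:**
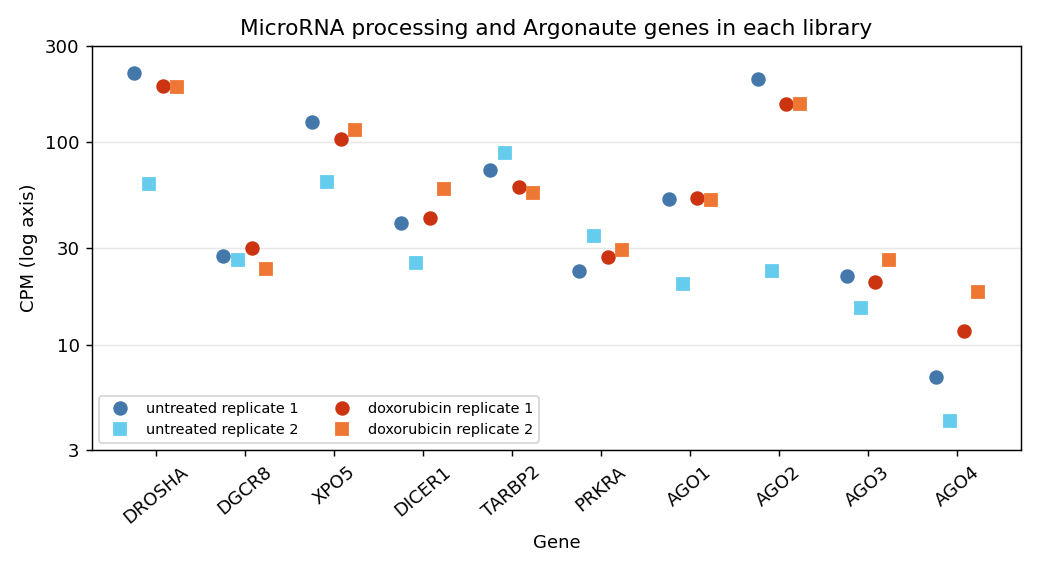
CPM of the 10 genes (log axis) in each library, with circles for replicate 1 and squares for replicate 2, untreated in blue and doxorubicin in red and orange. Untreated replicate 2 is the lowest point for 7 genes, against 45% of all genes. AGO4 and DICER1 are the genes with both treated points above both untreated points, an order found in 30.3% of all genes.

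Of the Argonaute genes, AGO2 differed most between the untreated replicates and AGO4 differed most after doxorubicin. AGO2 (chromosome 8, 140520156 to 140635633, minus strand) measured 206 and 23.1 CPM in the untreated libraries (replicates 1 and 2) and 155 and 154 CPM in the doxorubicin libraries. Untreated replicate 2 was 8.95-fold below untreated replicate 1 and 6.68-fold below the lowest of the other libraries, on 666 counts. The log2 fold change of AGO2 was 0.27 ± 0.91 (SE, adjusted p-value 0.933) with and -0.56 ± 0.22 (SE, unadjusted p-value 0.0114, adjusted p-value 0.109, edgeR) without untreated replicate 2. The direction thus depended on that library.

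AGO4 measured 6.95 and 4.19 CPM in the untreated libraries (replicates 1 and 2) and 11.7 and 18.2 CPM in the doxorubicin libraries. These rest on 252, 121, 401 and 502 counts, and the 95% exact Poisson intervals of the CPM, which cover counting error only, were 6.12 to 7.86, 3.48 to 5.01, 10.6 to 12.9 and 16.6 to 19.9. All treated intervals lay above all untreated ones, and the doxorubicin replicates differed from each other by 1.56-fold. The log2 fold change of AGO4 came to 1.25 ± 0.51 (SE, unadjusted p-value 0.0543, adjusted p-value 0.773, edgeR) with all libraries. Without untreated replicate 2 it was 0.96 ± 0.30 (SE, adjusted p-value 0.0313, edgeR), past the threshold on the adjusted p-value and just under the threshold of 1 on the log2 scale. In that fit the spread comes from the doxorubicin pair, and the lone untreated library is assumed to vary like it.

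AGO1, the next gene on chromosome 1, measured 52.4 and 20.0 CPM without the drug and 53.1 and 51.8 CPM with it. Apart from untreated replicate 2 the libraries were nearly equal, and its log2 fold change came to 0.38 ± 0.53 (SE) with and -0.14 ± 0.24 (SE) without that library. AGO3 measured 21.8 and 15.2 CPM without the drug and 20.4 and 26.1 CPM with it. The groups overlapped, and its log2 fold change came to 0.16 ± 0.41 (SE) with and -0.05 ± 0.26 (SE) without untreated replicate 2. Neither passed any threshold in these fits, with adjusted p-values between 0.811 and 0.945 (edgeR). Whether the difference in AGO4 exceeded that in its neighbours was not tested.

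Per kilobase of exon the Argonaute genes could be compared with each other. AGO2 made up 70.9% of the summed Argonaute level in untreated replicate 1, 36.4% in untreated replicate 2, and 62.2% and 58.4% in doxorubicin replicates 1 and 2. It was the most abundant Argonaute mRNA in each library, though in untreated replicate 2 its level (1.58 CPM per kb) was close to that of AGO1 (1.45 CPM per kb). The share of AGO4 was 4.79% and 13.3% without the drug and 9.42% and 13.8% with it. Per kilobase, AGO4 was below AGO3 in both untreated libraries (0.955 against 1.06 and 0.576 against 0.741 CPM per kb) and above it in both treated libraries. This order depends on the exon lengths, since in CPM AGO4 was below AGO3 in every library (18.2 against 26.1 in doxorubicin replicate 2). The share of AGO4 in untreated replicate 2 lay between those of the treated pair. The summed level was 19.95 CPM per kb in untreated replicate 1, 4.35 in untreated replicate 2, and 17.1 and 18.1 in the doxorubicin replicates. The smallest count behind these shares was 121.

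**Figure D2:**
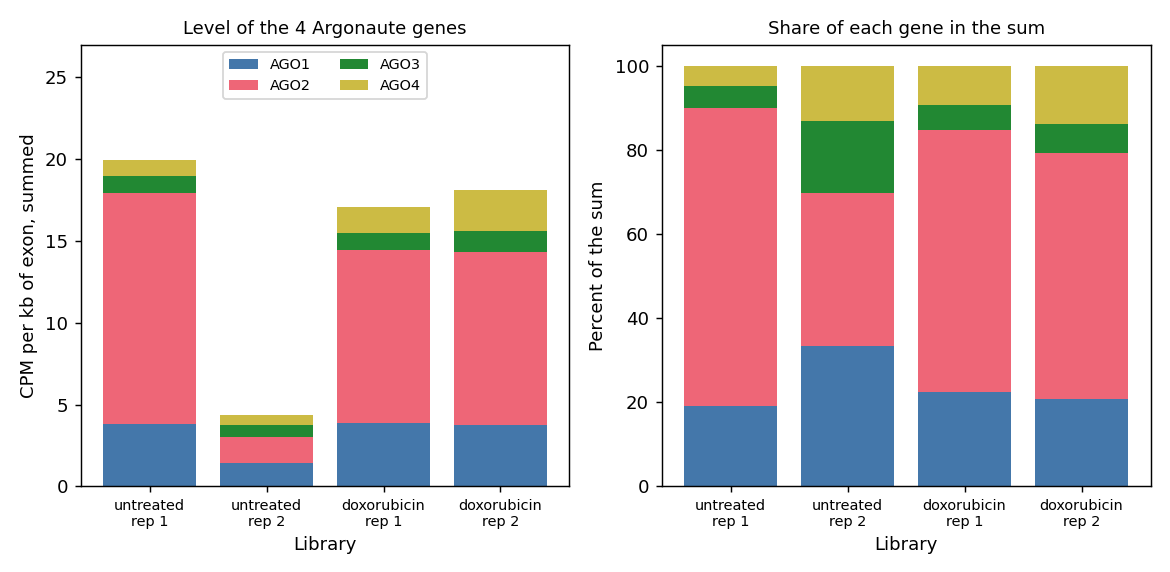
Level of AGO1 to AGO4 in CPM per kb of exon, summed (left), and the percent of that sum taken by each gene (right), for each of the 4 libraries. The sum in untreated replicate 2 is 4.35 against 17.1 to 19.95 in the others, and AGO2 takes 36.4% of it there against 58.4% to 70.9%.

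Across the 10 genes the levels per kilobase in untreated replicate 1 ran in the order TARBP2 (43.8 CPM per kb), DROSHA (40.6), XPO5 (23.6), AGO2 (14.1), PRKRA (10.1), DGCR8 (6.09), AGO1 (3.80), DICER1 (3.20), AGO3 (1.06) and AGO4 (0.955). TARBP2 was first in 3 libraries and behind DROSHA in doxorubicin replicate 2, but with the longest transcript as the length it was first there too (37.2 against 34.8 CPM per kb). Over the 4 libraries TARBP2 ranged from 33.9 to 53.6, DROSHA from 11.5 to 40.6, XPO5 from 12 to 23.6, AGO2 from 1.58 to 14.1 and PRKRA from 10.1 to 15.1, and each of these overlapped its neighbour in the order. DGCR8 (5.24 to 6.61) stood apart from PRKRA above it and from AGO1 (1.45 to 3.85) below it. Its place was not fixed, since AGO2 was below it in untreated replicate 2 (1.58 against 5.79). With the longest transcript as the length, DICER1 was above it in doxorubicin replicate 2 (5.64 against 5.26 CPM per kb). AGO1 and DICER1 (2.03 to 4.72) overlapped, DICER1 was above AGO3 (0.741 to 1.27) in every library, and AGO3 and AGO4 (0.576 to 2.50) overlapped.

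With all 4 libraries, 0 of the 10 genes passed the edgeR thresholds of the methods (a log2 difference of 1 or more either way, with the adjusted p-value below 0.05), as did 0% of the 17479 genes tested. At an unadjusted p-value under 0.05 there were 0 of the 10 genes, against 4.39% of all genes. DESeq2 also called 0 of the 10 at the same thresholds, against 0.509% of all genes, and had 1 of them, AGO4, at an unadjusted p-value under 0.05 (0.0338), against 7.29% of all genes. The median log2 fold change came to 0.21 over the 10 genes, with 7 above 0 and 3 below, and 0.01 over all genes tested.

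Without untreated replicate 2, 0 of the 10 genes passed both thresholds, against 4.98% of all genes. AGO4 was higher and AGO2 and TARBP2 were lower at an unadjusted p-value under 0.05 (3 of the 10, against 19.5% of all genes), of which AGO4 had an adjusted p-value under 0.05. The median over the 10 genes was -0.16, with 3 above 0 (AGO4, DICER1 and PRKRA) and 7 below, and over all genes it was 0.05. Without untreated replicate 1 instead, 4 of the 10 (AGO2, AGO4, DROSHA and AGO1) were called as higher after doxorubicin, at log2 fold changes of 2.56, 1.64, 1.41 and 1.21, but 41% of all genes were called in that fit. Without doxorubicin replicate 1 the median log2 fold change was 0.21 over the 10 genes and -0.01 over all genes. Without doxorubicin replicate 2 it was 0.14 and 0.02.

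**Figure D3:**
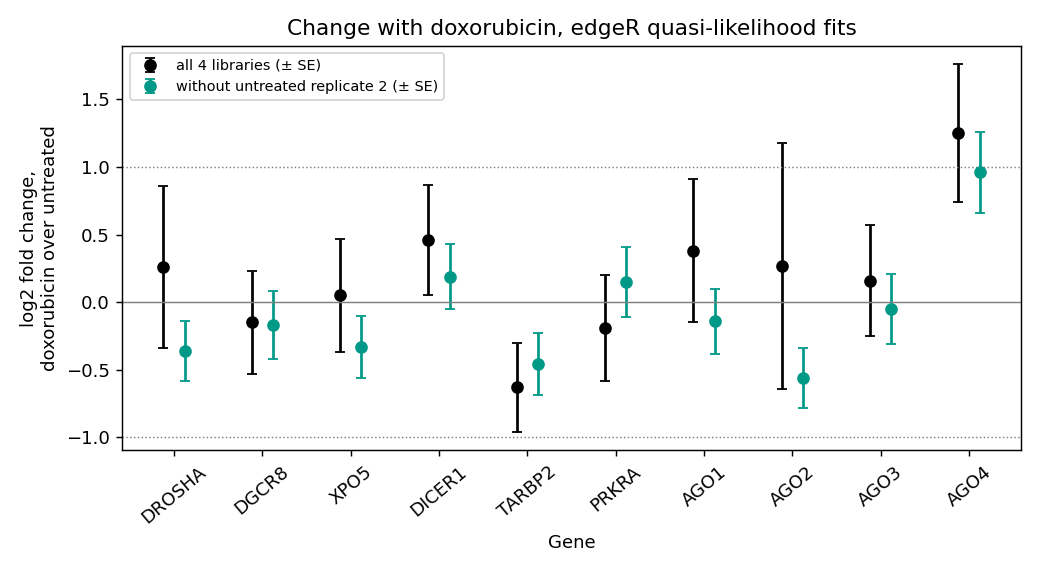
Log2 fold change, doxorubicin over untreated, of the 10 genes with its standard error, from the edgeR fit of all 4 libraries (black) and of 3 libraries without untreated replicate 2 (green). Dotted lines mark 1 and -1. AGO4 is highest in both fits (1.25 and 0.96), TARBP2 is below 0 in both (-0.63 and -0.46), and AGO2 goes from 0.27 to -0.56.

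By the order of the libraries alone, both doxorubicin libraries were above both untreated ones in 2 of the 10 genes (AGO4 and DICER1), against 30.3% of all genes, and below both in 1 (TARBP2), against 11.5%. Untreated replicate 2 was the lowest of the 4 libraries in 7 of the 10 genes (DROSHA, XPO5, DICER1 and all 4 Argonaute genes), against 45% of all genes, and the highest in 2 (TARBP2 and PRKRA), against 36.6%. The untreated replicates were at least 2-fold apart in 3 genes (DROSHA, AGO1 and AGO2), against 45.9% of all genes. The median log2 ratio of untreated replicate 2 over 1 was -0.69 over the 10 genes and -0.01 over all genes, and that of doxorubicin replicate 2 over 1 was 0.05 over both. None of the 10 genes was 2-fold apart between the doxorubicin replicates, against 6.09% of all genes.

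**Figure D4:**
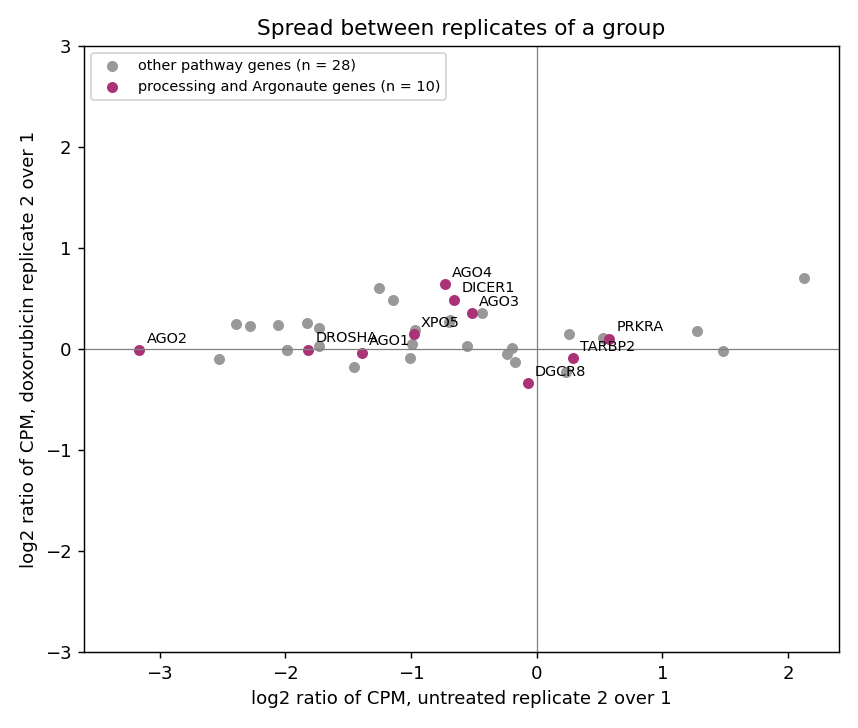
Log2 ratio of CPM between the replicates of a group, untreated replicate 2 over 1 on the horizontal and doxorubicin replicate 2 over 1 on the vertical axis, for the 10 genes (purple, named) and the 28 other pathway genes past the filter (grey). Points spread widely along the horizontal axis, with AGO2 farthest to the left, and stay within 1 of 0 on the vertical axis.

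The other genes of the pathway were taken from a list of 34, of which 28 passed the filter. The 6 that did not were the let-7 regulators LIN28A, LIN28B and TRIM71, with at most 6 counts in any library, and PIWIL1, PIWIL3 and PIWIL4 of the germline branch of the Argonaute family, of which PIWIL1 and PIWIL4 had 0 counts in all libraries. With all libraries, edgeR called 0 of the 28, against 0% of all genes, and DESeq2 called 0 of them, against 0.509%. At an unadjusted p-value under 0.05 there were 0 of the 28 in either test, against 4.39% (edgeR) and 7.29% (DESeq2) of all genes. Their median log2 fold change came to 0.25, with 17 above 0 and 11 below. Untreated replicate 2 was the lowest library in 20 of the 28, against 45% of all genes.

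Without untreated replicate 2, 1 of the 28 was called, PIWIL2 of the germline branch, against 4.98% of all genes, and the median was -0.10. PIWIL2 had 15 and 52 counts in untreated replicates 1 and 2 and 42 and 55 counts in the doxorubicin replicates. Untreated replicate 2 was thus within the range of the treated pair, and the value without it, 1.79 ± 0.58 (SE, adjusted p-value 0.0362, edgeR) on the log2 scale, was 0.42 with all libraries and -0.37 without untreated replicate 1. The next largest positive values without untreated replicate 2 were those of the exonuclease XRN1 (log2 fold change 0.75 ± 0.27, SE) and of TUT7, which adds uridines to precursor tails (0.46 ± 0.27, SE). XRN1 measured 14.4 and 6.03 CPM without the drug and 21.2 and 32.2 CPM with it, the groups being apart as in AGO4, and its adjusted p-value was 0.0739 (edgeR). The largest negative values were those of the chaperone HSP90AB1, which helps to load Argonaute proteins (-0.67 ± 0.21, SE, adjusted p-value 0.0313, edgeR), of the RNA-binding protein KHSRP (-0.60 ± 0.22, SE) and of RAN, the GTPase that drives nuclear export (-0.55 ± 0.21, SE). HSP90AB1 measured 3052 and 1537 CPM without the drug and 2081 and 2154 CPM with it, so that with untreated replicate 2 the groups overlapped and its log2 fold change came to -0.27 ± 0.38 (SE). With all libraries the log2 fold changes of the others were 1.21 ± 0.56 (SE) for XRN1, 0.64 ± 0.41 for TUT7, -0.53 ± 0.28 for KHSRP and -0.47 ± 0.27 for RAN.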

How the data were processed

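RNA-seq counts of 4 libraries were used, grouped by sample titles and the treatment protocol. For the treated samples, 1 label field names a miRNA experiment and not doxorubicin, and titles and protocol were followed. The titles read HepG2-nop53-mRNA-seq for untreated and HepG2-p53-mRNA-seq for treated libraries and do not name the drug, which the protocol gives. The authors removed adapters and poor reads (FastQC, Cutadapt), aligned the rest to hg38 by HISAT2, counted by HTSeq and deposited raw counts per gene symbol, 1 library per file. The file header names GENCODE release 31. Versions and the use of strand are not given in the sources used here.

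The tests used edgeR 4.0.16 under R 4.3.3 (filter by filterByExpr, factors by TMM, glmQLFit in its current form and glmQLFTest, prior count 0.125 for log2 fold changes), with adjustment over all 17479 genes tested. A call needed a log2 difference of 1 or more either way with the Benjamini-Hochberg adjusted p-value below 0.05, the limits the methods state. Standard errors are the size of the log2 fold change divided by the root of F. CPM is the count divided by the column total and multiplied by 1000000, and CPM per kb also divides by the merged exons of basic transcripts in GENCODE release 44 (GRCh38). The smallest CPM that 3 counts can show was between 0.0827 and 0.109. Alternatives were DESeq2 1.42.0, RLE factors, column totals, no filter, the replicate number as a block, each library left out and the longest transcript as the length. The fits were tested on simulated data.

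All 10 genes are named with their values. Of 34 other pathway genes, those with a call or an unadjusted p-value under 0.05 with all libraries, and the 3 largest changes each way without untreated replicate 2, were to be named, beside CDKN1A, MDM2, GDF15 and ALB as checks. MDM2 measured 43.0 and 32.1 CPM without the drug and 54.8 and 56.6 CPM with it, and GDF15 measured 191, 448, 832 and 877 CPM in the same order. The genes and lists were chosen with earlier results of these data known. Dixon's test needs more than 2 samples in a group and was not made. A list of markers of another cell type is not reported here.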

Additional observations from a re-analysis of the deposited data

How the results depend on the processing

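With DESeq2, RLE factors, column totals or no filter in place of the main settings, 0 of the 10 genes and 0 of the 28 other pathway genes were called, and all 10 log2 fold changes kept their sign. Column totals moved the median log2 fold change of all genes from 0.01 to 0.17 and that of the 10 genes from 0.21 to 0.37. Leaving out each library in turn gave between 0 and 4 calls among the 10 genes and between 0 and 14 among the others, the highest of both without untreated replicate 1. Without untreated replicate 2 it was 0 and 1. In these fits the log2 fold changes ranged from -0.36 to 1.41 for DROSHA, -0.33 to 0.60 for XPO5, -0.47 to 0.15 for PRKRA, -0.14 to 1.21 for AGO1, -0.56 to 2.56 for AGO2 and -0.05 to 0.42 for AGO3, each of which changed sign without untreated replicate 2, and from -0.38 to 0.04 for DGCR8, which changed sign without doxorubicin replicate 2. AGO4 (0.95 to 1.64), DICER1 (0.19 to 0.80) and TARBP2 (-0.80 to -0.46) kept theirs. Over all genes the number called was 0 with all libraries in edgeR, 89 with DESeq2, 871 without untreated replicate 2 and 7173 without untreated replicate 1. The cause was not tested.

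With the replicate block, 0 of the 10 genes and 0 of the other pathway genes were called, against 20 among all genes, and AGO4 had a log2 fold change of 1.26 and AGO2 of 1.00. The deviations of same-numbered libraries were nearly unrelated (correlation 0.0219), and the numbers were not taken as pairs. With the longest transcript as the length, the 16 Argonaute shares moved by less than the spread between replicates, as did 33 of the 40 levels per kilobase. Both lengths are equal for AGO2 (14595 bases) and AGO4 (7272 bases) and close for AGO1 (13808 and 13712) and AGO3 (20553 and 19660). The shares could therefore hardly move, and the untreated spread includes the outlying untreated replicate 2, so that this check says little about the choice of length. The biological coefficient of variation was 0.486 with all libraries, and DESeq2 gave no adjusted p-value to 1695 of all genes.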

Other observations

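DDX5 and DDX17 encode closely related helicases of the Microprocessor, p68 and p72, and they parted in untreated replicate 2 (both were singled out after their values were seen). DDX5 measured 409 and 989 CPM in the untreated libraries (replicates 1 and 2) and 404 and 457 CPM in the doxorubicin libraries. DDX17 measured 313 and 74.9 CPM without the drug and 326 and 385 CPM with it. Untreated replicate 2 was therefore 2.42-fold above untreated replicate 1 for DDX5 and 4.17-fold below it for DDX17, while the other 3 libraries were close to each other for both genes. The log2 fold change of DDX5 was -0.86 ± 0.46 (SE) with and -0.07 ± 0.22 (SE) without untreated replicate 2, and that of DDX17 was 0.71 ± 0.66 (SE) and 0.04 ± 0.22 (SE). ZSWIM8, which takes part in the decay of Argonaute proteins bound to certain targets, also had its highest CPM in untreated replicate 2, at 59.4 and 166 without the drug and 80.7 and 79.4 with it. That library was the highest in 5 of the 28 other pathway genes, against 36.6% of all genes. Of the partners that bind Argonaute proteins to silence mRNAs, TNRC6A measured 54.0 and 16.2 CPM without the drug and 53.2 and 61.4 CPM with it, and TNRC6B measured 33.0, 22.5, 30.6 and 31.2 CPM in the same order. TNRC6C measured 4.11, 2.04, 6.03 and 5.66 CPM, with both treated libraries above both untreated ones. That order was found in 7 of the 28 other pathway genes and in 30.3% of all genes. ZSWIM8 and the TNRC6 genes are likewise named here outside the rule for naming. Why the genes differ in that library was not tested.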
